A study of Mus musculus with 6 samples.

Results

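Most transcripts of the mitotic machinery were lower on the arrays that carry the keratinocyte label than on those that carry the MEF label. Marker genes of both cell types ran against these labels. The 60 genes followed here encode the kinases and cyclins of mitotic entry, the spindle checkpoint, the chromosomal passenger complex, the kinetochore, the spindle, the cytokinesis machinery and the proteins that condense, hold and separate chromosomes. They were listed by name, and a member counted as measured when a probe set of the deposited table was paired with its symbol alone. By this rule 58 of the 60 were measured among 10261 named genes, each by 1 probe set, 56 under the listed symbol and 2, Sgol1 (Sgo1 in the table) and Foxm1b (Foxm1), through a RefSeq synonym. Ccnb1 and Cenpk were not measured.

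The cells studied were primary keratinocytes, epithelial cells that build the epidermis, taken from newborn back skin at postnatal day 0 and grown in a keratinocyte medium, and the cells they were set against were mouse embryonic fibroblasts (MEFs) of E13.5 embryos, grown in DMEM with serum. Each was hybridised to 3 arrays (Affymetrix MoGene-1_0-st), numbered as biological replicates, and no treatment was applied. By the methods the MEFs were C57BL/6J, whereas the isolation protocol of the labels names DR-4 embryos, combined and without head and inner organs, and no strain is given for the keratinocytes. Cell type, age, medium and isolation cannot be told apart in this design.

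The labels were checked with Cdh1 (E-cadherin) and Vim (vimentin), and both ran against them. Cdh1 had a log2 signal of 2.92 ± 0.66 on keratinocyte-labelled arrays and 8.65 ± 0.07 on MEF-labelled arrays, and Vim had 11.97 ± 0.05 on keratinocyte-labelled and 3.84 ± 0.07 on MEF-labelled arrays (SD, n = 3 each; exact two-sided permutation test, p = 0.1 for each gene, the smallest that 3 arrays against 3 allow). Of the 7 keratinocyte markers measured, 7 were lower on keratinocyte-labelled arrays and at background there, with a summed linear signal of 54.0 to 65.2 against 13918 to 14018 on MEF-labelled arrays. The 6 fibroblast markers went the opposite way, with 17527 to 18122 against 89.7 to 109, and were at background on each array labelled MEFs. By these markers the keratinocyte-labelled arrays had the profile of fibroblasts, and the MEF-labelled arrays that of keratinocytes. Every direction below is given for the arrays as labelled. Read by the markers instead of the labels, each direction between the cell types turns round. Whether the labels of the 2 groups were exchanged was not tested. Pairs of arrays of 1 group correlated at r = 0.985 to 0.994 over the named probe sets (probe sets are no replicates), and pairs across the groups at 0.629 to 0.647.

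Cells enter mitosis when CDK1, bound to its A- and B-type cyclins, phosphorylates a wide set of proteins, helped by the Aurora and Polo kinases. Kinetochores assemble on centromeric chromatin and attach chromosomes to the spindle, and the checkpoint holds back the anaphase-promoting complex until attachment is complete. Because transcription of most of these genes peaks late in the cell cycle, their summed level in a culture is widely used as a measure of how many cells are dividing. In bulk RNA, fewer cells in division and less of a transcript per dividing cell cannot be told apart.

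Of the 58 measured genes, 49 were lower on keratinocyte-labelled arrays and 0 were higher, while 9 did not pass (limma 3.58.1, Benjamini-Hochberg adjusted p under 0.05 over all probe sets with 1 symbol; 50 lower and 0 higher at an unadjusted p under 0.05). Over all genes 74.5% passed by the same test, 41.7% lower and 32.9% higher. For 53 of the 58, each keratinocyte-labelled array lay below each MEF-labelled one, against 43.4% of all genes, and for 0 above, against 35.0%. The groups did not overlap for 78.4% of all genes in either direction. The median log2 difference of the members was -0.78, with the middle of the range between -1.09 and -0.52 (quartiles), and the median of all genes was -0.12. A difference of at least 1 on the log2 scale, called lower, was found for 19 members and for 14.4% of all genes, and one of at least 1.5 for 7 members and for 7.80% of all genes. Differences ranged from -2.05 for Anln to 0.06 for Bub3. The plot of signals by array shows how narrow the spread within each group was beside these differences.

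**Figure D1:**
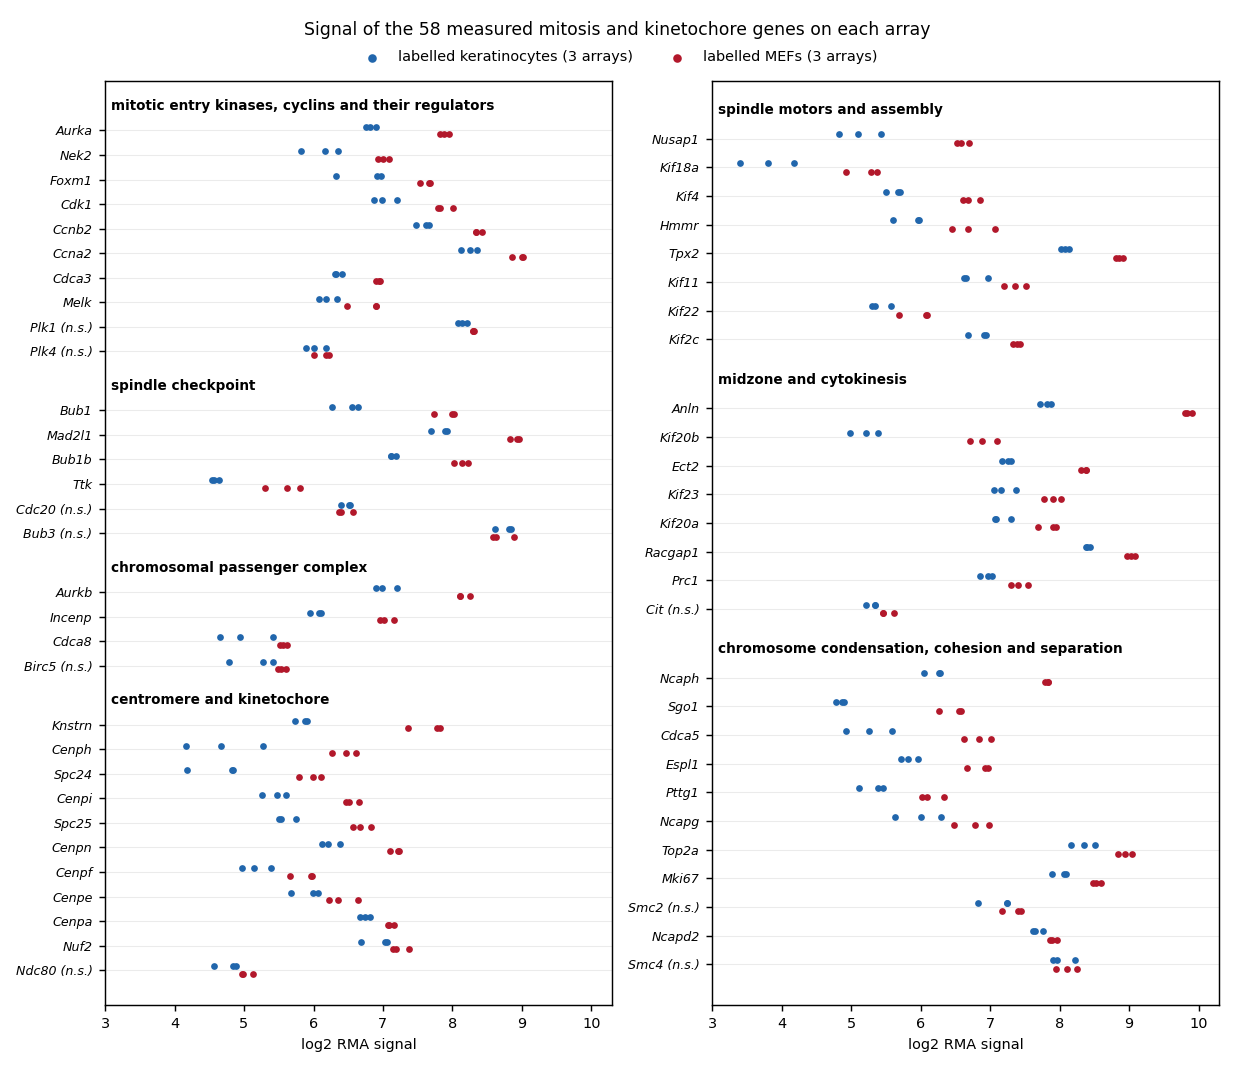
Signal by array (log2 RMA, horizontal axis) for the 58 measured mitosis and kinetochore genes by role, with a point for each of the 3 keratinocyte-labelled (blue, upper) and 3 MEF-labelled arrays (red, lower), and n.s. for the 9 genes not past the threshold. For 53 genes the blue points all lie left of the red ones, and Anln shows the widest gap.

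Background on each array was set at the 95th percentile over 10 probe sets of olfactory receptors, a rough level because they are few. It was 5.49 to 5.92 on keratinocyte-labelled arrays and 6.05 to 6.58 on MEF-labelled arrays. Of the 58 genes, 32 were above it on all 6 arrays. Another 7 (Cenph, Spc24, Kif22, Nusap1, Kif20b, Pttg1 and Sgo1) were at background on every array labelled keratinocytes and above it on at least 1 labelled MEFs. For them a fold is given as a lower bound, the mean signal on MEF-labelled arrays over the higher of background and signal on the others. Only Kif20b of these was above background on all 3 MEF-labelled arrays. For the others the bound rests in part on signal at background. Ttk, Birc5, Cdca8, Cenpf, Ndc80, Kif18a and Cit were above background on no array, and no fold is given for these 7. A gene at background need not be silent.

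Promoters of this gene class are known for CCAAT boxes, bound by NF-Y, and for the cell cycle homology region TTTGAA, bound through LIN54 by the DREAM and MMB complexes that repress and activate mitotic genes. RefSeq promoter windows (GRCm38.p6, 250 bases before to 50 after the start) were found for 52 of the 60 members, 57 windows in all, the 2 members not measured included. TTTGAA, or TTCAAA on the other strand, occurred in 63.2% of these windows and in 17.9% of all 32851 windows of the same length. CCAAT, or ATTGG on the other strand, occurred in 71.9% and in 37.4%. The letters of the motifs do not overlap, both strands were searched, and a match is a description, not a site. Of the members that were lower, 28 of 42 with a window held TTTGAA, as did 5 of the 8 that did not pass, and CCAAT was held by 30 of 42 and by 4 of 8. The 110 bases before the start are printed for 5 members, read 5′ to 3′ along the gene with both motifs in capitals. Cdk1 (chr10:69352913-69353022, minus strand), Ccnb2 (chr9:70421555-70421664, minus strand) and Cdca5 (chr19:6084987-6085096, plus strand) are shown as lower members with differently arranged motifs, Mad2l1 (chr6:66535111-66535220, plus strand) as a lower member with none in this stretch, and Cdc20 (chr4:118437344-118437453, minus strand) as a member that did not pass. They were chosen after their values were seen, and no annotated gene overlaps the stretches.
Cdk1: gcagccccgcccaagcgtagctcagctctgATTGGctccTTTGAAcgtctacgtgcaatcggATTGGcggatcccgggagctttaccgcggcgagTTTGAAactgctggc
Ccnb2: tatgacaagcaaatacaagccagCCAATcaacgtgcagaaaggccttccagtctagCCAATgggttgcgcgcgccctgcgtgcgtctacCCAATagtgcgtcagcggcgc
Cdca5: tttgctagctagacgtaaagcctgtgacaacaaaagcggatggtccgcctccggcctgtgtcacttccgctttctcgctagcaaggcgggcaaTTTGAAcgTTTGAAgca
Mad2l1: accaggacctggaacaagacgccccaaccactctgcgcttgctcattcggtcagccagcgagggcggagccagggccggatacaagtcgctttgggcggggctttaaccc
Cdc20: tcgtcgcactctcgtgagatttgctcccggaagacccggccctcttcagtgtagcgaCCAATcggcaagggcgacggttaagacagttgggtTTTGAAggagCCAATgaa
Cdk1 carries 2 TTTGAA and 2 reversed CCAAT boxes in this stretch, Ccnb2 3 CCAAT boxes, Cdca5 2 TTTGAA, and Cdc20 1 TTTGAA between 2 CCAAT boxes. Both motifs were thus present at Cdk1, which was lower, and at Cdc20, which did not pass. Ccnb2 also held TTTGAA in its window but outside the printed stretch, with first bases at -167 and 5 from the start.

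The count of each role below stands beside 41.7% of all genes lower and 32.9% higher. Among the kinases, cyclins and regulators of mitotic entry, 8 of 10 measured genes were lower on keratinocyte-labelled arrays and 2, Plk1 and Plk4, did not pass. Cdk1, the kinase that drives entry, had log2 signals of 6.87, 6.99 and 7.20 on keratinocyte-labelled arrays and of 7.79, 7.83 and 8.00 on MEF-labelled arrays. All 3 values of the first group lay below all 3 of the second, a 1.81-fold lower signal (log2 difference -0.85, SE 0.11, adjusted p = 2.06e-04 from limma). Among its partners, cyclin A2 (Ccna2) was 1.64-fold lower and cyclin B2 (Ccnb2) 1.72-fold lower. Aurka, the Aurora kinase of the spindle poles, was 2.09-fold lower, the largest difference of this group, with 6.90, 6.75 and 6.81 against 7.82, 7.88 and 7.95 on MEF-labelled arrays (log2 difference -1.06, SE 0.09, adjusted p = 1.18e-05 from limma). Nek2, a kinase of centrosome separation, stood at 5.83, 6.17 and 6.36 against 6.93, 7.09 and 7.00 (1.85-fold lower, adjusted p = 5.17e-04 from limma), without overlap at an SD of 0.27 on keratinocyte-labelled arrays. Foxm1, the forkhead factor that switches on genes of late cell cycle, was 1.85-fold lower, Cdca3 1.50-fold and the kinase gene Melk 1.48-fold. For Melk 2 of 3 MEF-labelled arrays were above background.

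The Polo kinase genes did not pass. Plk1, which acts from centrosome maturation to cytokinesis, had signals of 8.14, 8.08 and 8.21 on keratinocyte-labelled arrays and 8.31, 8.30 and 8.29 on MEF-labelled arrays. The groups did not overlap, yet the log2 difference of -0.16 did not pass (95% interval -0.35 to 0.04, adjusted p = 0.128 from limma). Plk4, the kinase of centriole duplication, overlapped between the groups, with 6.19, 5.89 and 6.00 against 6.01, 6.22 and 6.17 on MEF-labelled arrays (log2 difference -0.11, interval -0.36 to 0.15). The lower ends of both intervals are nearer to 0 than the difference of any of the 8 genes that passed, which ran from -1.06 to -0.56, but no difference between genes was tested.

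In the spindle checkpoint 4 of 6 genes were lower, and Bub3 and Cdc20 did not pass. Over all genes 74.5% passed in either direction and 41.7% were lower, so the share of checkpoint genes that passed was not above that of all genes. Bub1, the kinase that recruits checkpoint proteins to kinetochores, had signals of 6.56, 6.27 and 6.65 on keratinocyte-labelled arrays and of 7.74, 7.99 and 8.03 on MEF-labelled arrays, a gap of over 1 between the nearest arrays. It was 2.69-fold lower (log2 difference -1.43, SE 0.13, adjusted p = 1.97e-05 from limma). Mad2l1, which encodes MAD2, the inhibitor that captures CDC20, stood at 7.92, 7.70 and 7.89 against 8.83, 8.96 and 8.92 (2.10-fold lower, adjusted p = 1.93e-05 from limma), and Bub1b, which encodes BUBR1 of the same inhibitory complex, was 1.99-fold lower. Ttk, the MPS1 kinase at the top of the pathway, had a log2 difference of -0.99 but was above background on no array. Cdc20, the activator of the anaphase-promoting complex that these proteins hold in check, had 6.51, 6.39 and 6.52 on keratinocyte-labelled arrays and 6.37, 6.39 and 6.57 on MEF-labelled arrays. Its groups overlapped and its log2 difference was 0.03 (95% interval -0.19 to 0.25, adjusted p = 0.792 from limma), with 1 of 3 arrays labelled MEFs above background. Bub3, which carries BUB1 and BUBR1 to the kinetochore, was bright on all 6 arrays, with 8.62, 8.81 and 8.84 against 8.88, 8.62 and 8.58 (log2 difference 0.06, interval -0.20 to 0.33).

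The chromosomal passenger complex corrects faulty attachments and guides cytokinesis, and 3 of its 4 genes were lower. Of all genes 41.7% were lower and 74.5% passed in either direction. The share of these 4 genes that passed in either direction lay near that of all genes. Its kinase gene Aurkb stood at 6.91, 6.98 and 7.20 on keratinocyte-labelled arrays and at 8.11, 8.11 and 8.25 on MEF-labelled arrays (2.19-fold lower, log2 difference -1.13, SE 0.11, adjusted p = 2.51e-05 from limma). The scaffold gene Incenp had 5.96, 6.11 and 6.08 against 6.96, 7.15 and 7.01 (1.99-fold lower, adjusted p = 2.84e-05 from limma), and was as free of overlap as Aurkb. The remaining subunits were dim. Cdca8 (borealin) was lower by the test, with a log2 difference of -0.56 (SE 0.18, adjusted p = 0.0188 from limma, and 0.0504 without replicate 1 labelled MEFs), and Birc5 (survivin) had 4.79, 5.27 and 5.42 against 5.49, 5.61 and 5.53 and missed the threshold (log2 difference -0.39, adjusted p = 0.0539 from limma, and 0.0192 without replicate 3 labelled keratinocytes).

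At the centromere and kinetochore, 10 of 11 measured genes were lower and 1, Ndc80, did not pass. Knstrn, a spindle and kinetochore protein, had the largest difference of this group, with 5.87, 5.73 and 5.90 on keratinocyte-labelled arrays, 2 of them above background, and 7.36, 7.83 and 7.77 on MEF-labelled arrays (3.53-fold lower, log2 difference -1.82, SE 0.14, adjusted p = 5.71e-06 from limma). Cenph, of the inner network that sits on centromeric chromatin, stood at 5.27, 4.17 and 4.66 against 6.26, 6.61 and 6.47 (log2 difference -1.75, SE 0.25, adjusted p = 2.88e-04 from limma). Its keratinocyte-labelled arrays differed by over 1 among themselves and were all at background, so that the fold is given as at least 1.68. Only 1 of 3 MEF-labelled arrays was above background for Cenph, so this bound rests in part on signal at background. Its network partners Cenpi and Cenpn were 2.15-fold and 1.92-fold lower, Cenpi with only 1 of 3 arrays above background in each group. Cenpa, the histone H3 variant that marks the centromere, was 1.29-fold lower. The motor gene Cenpe was 1.41-fold lower (adjusted p = 0.0140 from limma, and 0.0506 without replicate 2 labelled MEFs). For Cenpe only 2 of 3 keratinocyte-labelled arrays and 1 of 3 MEF-labelled arrays were above background.

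The 4 subunits of the NDC80 complex, which holds the microtubule end, had differences of unequal size. Spc24 and Spc25, which encode the end facing the inner kinetochore, had log2 differences of -1.35 and -1.09, while Ndc80 and Nuf2, which encode the microtubule-binding end, had -0.26 and -0.31. Nuf2 lay just inside the threshold (adjusted p = 0.04998 from limma), with 7.03, 6.69 and 7.05 on keratinocyte-labelled arrays and 7.19, 7.37 and 7.15 on MEF-labelled arrays, and Ndc80 just outside (adjusted p = 0.0672 from limma, and 0.0438 without replicate 1 labelled keratinocytes). The call of Nuf2 was lost in 10 of 16 alternatives, among them the omission of replicate 2 labelled keratinocytes or of any 1 MEF-labelled array (adjusted p = 0.0674 to 0.161 from limma). The difference between subunits was not tested, Ndc80 was above background on no array, and Spc24 on only 1, a MEF-labelled one.

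All 8 genes of spindle motors and assembly were lower on keratinocyte-labelled arrays. Nusap1, which bundles spindle microtubules, had 5.10, 4.83 and 5.42 there, each at background, and 6.58, 6.70 and 6.52 on MEF-labelled arrays (log2 difference -1.49, SE 0.15, adjusted p = 3.55e-05 from limma; at least 1.87-fold lower). Kif18a, a kinesin that dampens chromosome movements, stood at 4.17, 3.40 and 3.80 against 4.93, 5.37 and 5.28 (log2 difference -1.41, SE 0.20, adjusted p = 2.92e-04 from limma), separated but below background throughout. Of those above background on all 6 arrays, Tpx2, which activates Aurora A on the spindle, was 1.72-fold lower, the pole-separating kinesin gene Kif11 1.53-fold and the microtubule-depolymerising kinesin gene Kif2c 1.45-fold. The chromokinesin gene Kif4 was 2.13-fold lower with 1 of 3 keratinocyte-labelled arrays above background, and Hmmr 1.85-fold lower with 2 of 3 above it in each group.

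**Figure D2:**
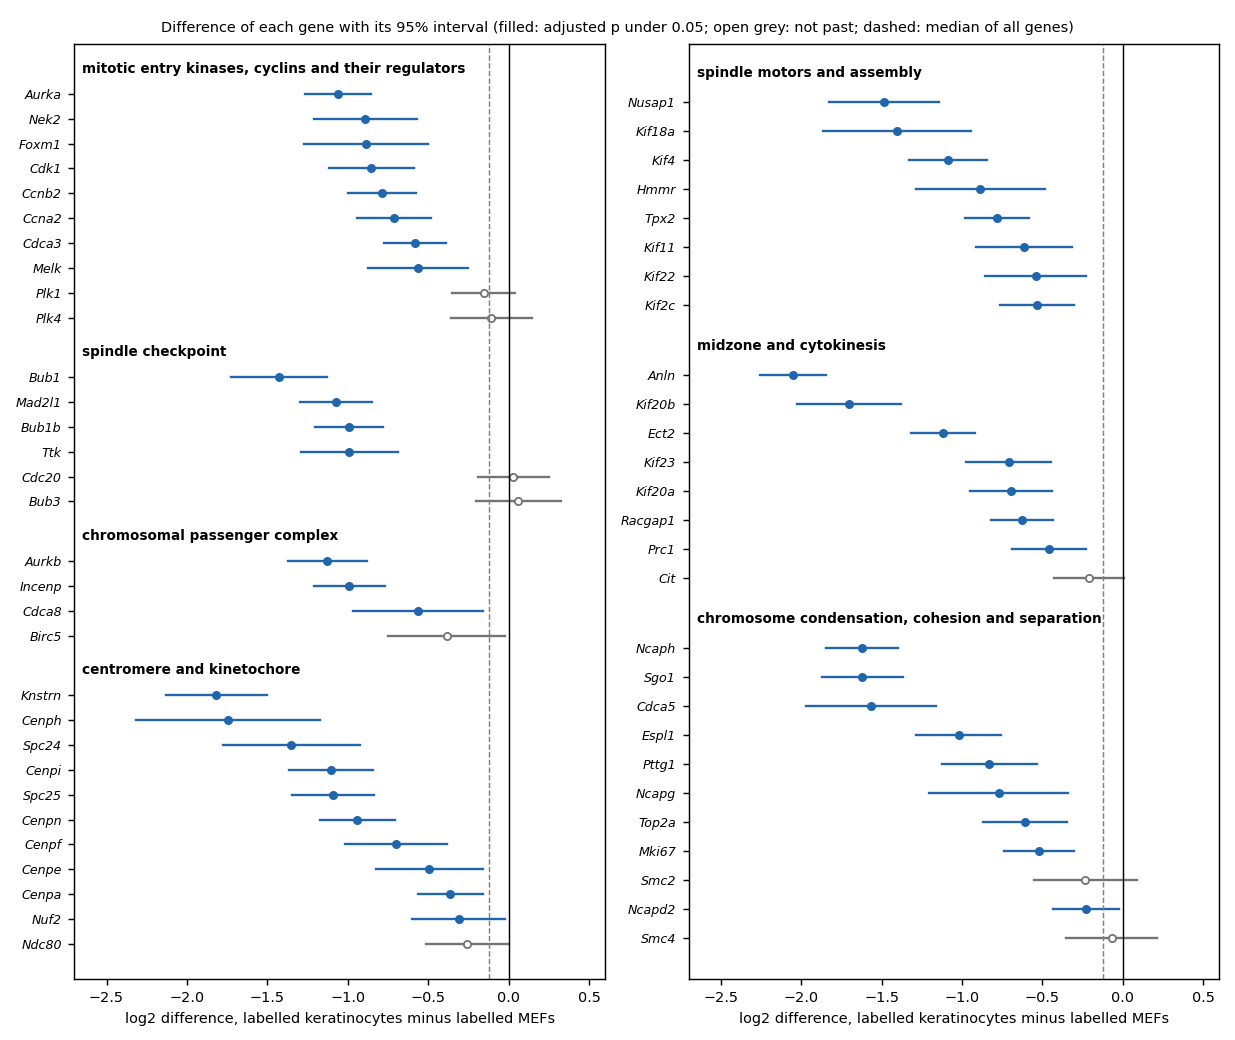
Log2 difference (horizontal axis, keratinocyte-labelled minus MEF-labelled arrays) of each of the 58 genes by role, with bars for the 95% interval of the limma fit, filled blue for the 49 past the threshold and open grey for the 9 that are not, and a dashed line at the median of all genes, -0.12. All 8 spindle genes lie left of 0, and Cdc20 and Bub3 sit on it.

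Of 8 genes of the spindle midzone and cytokinesis, 7 were lower, and they held the largest difference of all members. Anln encodes anillin, the scaffold that ties actin, myosin and septins into the contractile ring, and had signals of 7.81, 7.71 and 7.88 on keratinocyte-labelled arrays and of 9.84, 9.90 and 9.81 on MEF-labelled arrays. These values were far apart and tight within each group, a 4.14-fold lower signal (log2 difference -2.05, SE 0.09, adjusted p = 1.96e-07 from limma). Kif20b, a kinesin of late cytokinesis, stood at 5.39, 4.99 and 5.21, all at background, against 6.70, 7.10 and 6.89 (log2 difference -1.70, SE 0.14, adjusted p = 1.04e-05 from limma; at least 2.29-fold lower). Ect2, which activates RhoA at the midzone, was 2.17-fold lower, while Kif23 and Racgap1, which together form the centralspindlin complex that recruits it, were 1.63-fold and 1.54-fold lower. Kif20a was 1.62-fold and the microtubule bundler gene Prc1 1.37-fold lower. Cit, the citron kinase of the midbody, did not pass and was at background throughout (log2 difference -0.21, 95% interval -0.43 to 0.01, adjusted p = 0.0730 from limma).

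Of 11 genes of chromosome condensation, cohesion and separation, 9 were lower and Smc2 and Smc4 did not pass. Ncaph, the kleisin subunit of condensin I, had 6.26, 6.05 and 6.28 on keratinocyte-labelled arrays and 7.83, 7.84 and 7.79 on MEF-labelled arrays, which makes it 3.08-fold lower (log2 difference -1.62, SE 0.10, adjusted p = 1.39e-06 from limma). Within the same complex Ncapg was 1.71-fold lower, with 2 of 3 arrays above background in each group, and Ncapd2 1.17-fold lower (adjusted p = 0.0460 from limma). The call of Ncapd2 was lost in 10 of 16 alternatives, among them the omission of replicate 1 or 3 labelled keratinocytes or of any 1 MEF-labelled array (adjusted p = 0.0825 to 0.124 from limma). The ATPase genes Smc2 and Smc4, which condensin II also uses, overlapped between the groups, with log2 differences of -0.23 (95% interval -0.55 to 0.09) and -0.07 (-0.35 to 0.21).

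Sgo1, which encodes shugoshin, the protector of centromeric cohesin, had 4.90, 4.78 and 4.87 on keratinocyte-labelled arrays, all at background, and 6.27, 6.55 and 6.58 on MEF-labelled arrays (log2 difference -1.62, SE 0.11, adjusted p = 2.93e-06 from limma; at least 1.70-fold lower). Cdca5 (sororin), which keeps sister chromatids joined, had 4.93, 5.26 and 5.59 on keratinocyte-labelled arrays and 7.02, 6.83 and 6.63 on MEF-labelled arrays (log2 difference -1.56, SE 0.18, adjusted p = 7.04e-05 from limma). Of the keratinocyte-labelled arrays 2 of 3 were at background, so the size of this difference rests in part on values below it. Of the pair that times separation, Espl1, the separase that cuts cohesin, was 2.03-fold lower, with 2 of 3 keratinocyte-labelled arrays above background. Its inhibitor gene Pttg1 (securin) was at least 1.36-fold lower, but was above background on only 1 array, a MEF-labelled one. That bound thus rests in part on signal at background. Mki67, which encodes the proliferation marker Ki-67, had 8.06, 7.89 and 8.09 against 8.48, 8.52 and 8.59 on MEF-labelled arrays (1.43-fold lower, log2 difference -0.52, SE 0.09, adjusted p = 0.00117 from limma). Top2a, the topoisomerase that untangles chromosomes, had 8.50, 8.16 and 8.35 against 8.85, 9.05 and 8.94 (1.52-fold lower, adjusted p = 0.00143 from limma). Neither gene overlapped between the groups, and both differences were smaller than the median of the members.

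Arrays of the same group differed in how many members they held at the low or high end. On replicate 2 labelled keratinocytes, 39 of the 58 genes (67.2%) had the lowest value of their group, against 39.3% of all genes, and on replicate 1 labelled MEFs 38 (65.5%) did, against 50.4% of all genes. Replicate 3 labelled keratinocytes held the highest value for 31 genes (53.4%, against 37.4% of all genes) and replicate 2 labelled MEFs for 34 (58.6%, against 36.3%). These shifts were small: the median signal of the members was 6.30, 6.22 and 6.40 on keratinocyte-labelled arrays and 7.09, 7.19 and 7.15 on MEF-labelled arrays, so that the groups stayed apart. The median SD of a member was 0.14 on keratinocyte-labelled arrays and 0.11 on MEF-labelled arrays, the same to 2 decimals as over all genes. With replicate 2 labelled keratinocytes left out 48 members were lower, beside 38.5% of all genes. With replicate 1 labelled MEFs left out 46 were, beside 39.8% of all genes.

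**Figure D3:**
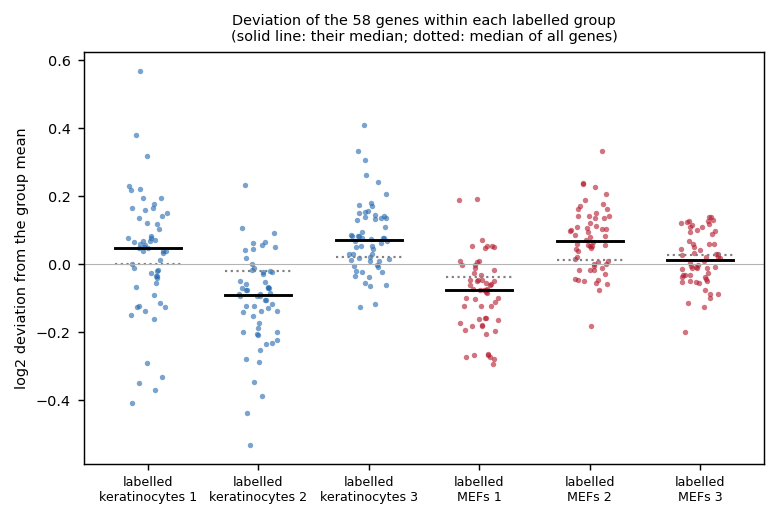
Log2 deviation (vertical axis) of each of the 58 genes from its group mean, on 3 keratinocyte-labelled (blue) and 3 MEF-labelled arrays (red), with solid lines for the members' median and dotted lines for that of all genes. The members' median lies lowest on replicate 2 labelled keratinocytes and on replicate 1 labelled MEFs.

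In 6 further lists of mitotic genes, 79 of 108 measured genes were lower on keratinocyte-labelled arrays, 11 were higher and 18 did not pass, with a median log2 difference of -0.64, beside 41.7% lower and a median of -0.12 over all genes. Among other kinetochore genes 19 of 21 were lower, with Cenpq, of the inner network, at 4.26, 3.37 and 4.17, all at background, against 5.92, 6.15 and 6.01 on MEF-labelled arrays, 1 of 3 above it (at least 1.25-fold lower, adjusted p = 4.75e-05 from limma), and Cenpt 2.83-fold lower. Of 30 centrosome and spindle genes, 26 were lower, led by the abscission gene Cep55 (at least 1.94-fold) and by Ckap2l (3.09-fold), and 1, Psrc1, was higher. For Cep55 2 of 3 MEF-labelled arrays were above background. Of 14 cohesin and other condensin genes, 12 were lower and Pds5b was higher, among them Esco1 and Esco2, the acetyltransferases that establish cohesion. Esco1 was above background on 1 MEF-labelled array alone (at least 1.25-fold lower), and Esco2 on no array, so that no fold is given for it. The switches of entry and exit had 10 of 14 lower, with the phosphatase gene Cdc25b, which activates CDK1, 4.33-fold lower (6.25, 6.50 and 6.63 against 8.60, 8.54 and 8.58) and cyclin F (Ccnf) 3.57-fold lower, while Ensa and Ppp2r2d were higher. Of 14 transcriptional regulators, 9 were lower and 2, E2f3 and Lin37, higher. Mybl2, the activator within the MMB complex, was 3.34-fold lower and Rbl1, which encodes the pocket protein p107, 3.04-fold lower.

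Of 15 genes of the anaphase-promoting complex and its partners, 3 were lower, 5 higher and 7 not past the threshold, beside 41.7% lower and 32.9% higher over all genes, so that the count of higher genes lay near the share of all genes. Their median log2 difference was 0.12. Its ubiquitin-conjugating enzyme Ube2c was 2.72-fold lower, with 6.01, 6.04 and 6.07 on keratinocyte-labelled arrays and 7.37, 7.46 and 7.62 on MEF-labelled arrays. The core subunit gene Anapc16 was 2.49-fold higher, with 7.61, 7.62 and 7.77 against 6.30, 6.33 and 6.43, 1 of the last 3 above background. The core subunit genes Anapc4, Anapc7 and Cdc16 and the chain-elongating enzyme gene Ube2s were higher too. DNA replication genes had 29 of 32 lower and 0 higher, with a median log2 difference of -1.05. Gins1, of the replicative helicase, was at least 1.41-fold lower, but only 1 of 3 MEF-labelled arrays was above background. That bound thus rests in part on signal at background. Pola1, the catalytic subunit of polymerase alpha, was at least 2.41-fold lower, with 3 of 3 MEF-labelled arrays above background.

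**Figure D4:**
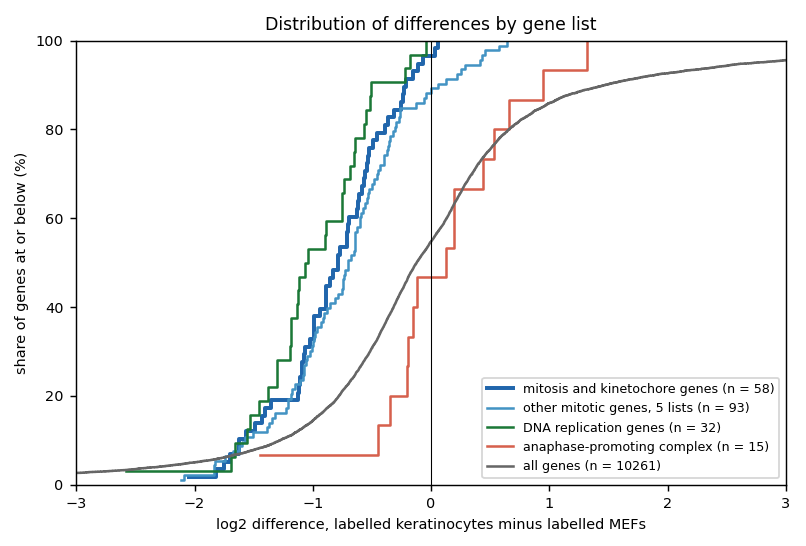
Share of genes (vertical axis, percent) at or below each log2 difference (horizontal axis, keratinocyte-labelled minus MEF-labelled arrays) for the 58 mitosis and kinetochore genes, 93 genes of 5 other mitotic lists, 32 DNA replication genes, 15 genes of the anaphase-promoting complex and its partners, and all 10261 genes, of which those beyond 3 in either direction are not drawn. The curves of the members and of replication lie left of that of all genes over most of their range, and that of the anaphase-promoting complex crosses it.

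Further markers differed between the groups as well. Of the differentiated keratinocyte markers, 2 of 6 were measured and both were lower on keratinocyte-labelled arrays, with a summed linear signal of 12.5 to 17.7 against 700 to 752. This is the direction of the keratinocyte markers above, against the labels. The 2 measured of 5 blood cell markers split, Cd68 lower and Lyz2 higher, with sums of 48.0 to 75.3 against 349 to 414. Lyz2 was above background on only 1 array, a keratinocyte-labelled one. Skeletal muscle markers (2 of 4 measured, Des and Actc1) were higher, 161 to 182 against 42.7 to 46.6, with Des above background on only 1 keratinocyte-labelled array. The endothelial gene Kdr, 1 of 4 measured, was at background throughout, with 9.90 to 12.3 against 28.0 to 33.3. None of the 5 melanocyte and Schwann cell markers was measured. The part of blood, muscle or endothelial cells in the differences of the mitotic genes was not tested.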

How the data were processed

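RNA of 3 samples labelled keratinocytes and 3 labelled MEFs was hybridised to Affymetrix MoGene-1_0-st arrays. The values deposited by the authors are log2 signals for 15648 probe sets, RMA normalized with oligo (version 1.46.0 in the submitters' processing notes). RMA corrects background, forces arrays onto 1 distribution and pulls dim signals together, which can shrink differences of dim genes. The deposited probe sets were not on 1 distribution: array medians ran from 6.16 to 6.31 and SDs from 1.87 to 1.99. The sources used here do not give the arrays RMA was run over or how probe sets were chosen. The platform's table pairs 11288 probe sets with 1 gene symbol and 645 with several, and 3715 have no entry. A gene was its brightest probe set. Differences, as arrays labelled keratinocytes minus those labelled MEFs, were tested in limma 3.58.1 (lmFit, eBayes; R 4.3.3) over the 11288 probe sets, without a block, at a Benjamini-Hochberg adjusted p under 0.05. Tested on simulated data with 200 changed of 11288 probe sets, the fit found 91% of log2 changes of 1 and 100% of those of 2, with 4.98% false calls. Since 74.5% of genes passed in the data, these rates may differ there. The number of arrays limits the precision. Since the labels do not say whether replicates came from separate animals or cultures, p-values measure the spread between these samples only.

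Members and lists were chosen with earlier results of these data known. Values per array are given for Cdk1, Ccnb1 (not measured), Plk1, Aurkb, Cdc20, Mki67, Top2a and the 2 members of each role with the largest differences, with some others named after their values were seen, and from each further list the 2 called genes with the largest differences. The alternatives were a replicate block, each array left out, median centring, quantile normalization, z-scores per array, 2 filters on dim probe sets, eBayes with trend and robust settings, Student's t-test, probe sets averaged per gene, a fit that included unnamed probe sets, and a log2 difference of at least 1. The methods name limma for the arrays, and the t-test for test samples compared with a control. Promoter sequences came from RefSeq (GRCm38.p6). Plots were made in Python 3.11.15 (matplotlib 3.10.9).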

Additional observations from a re-analysis of the deposited data

How the results depend on the processing

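No direction of a called difference turned round under any alternative run. Members lower on the arrays labelled keratinocytes numbered 46 to 50 of 58, and 0 were higher, under the replicate block, each array left out, 3 rescalings, the trend with robust eBayes, probe sets averaged per gene, a fit that included unnamed probe sets and Student's t-test. Under these settings 36.4% to 42.4% of all genes were lower. The t-test called 49 at an unadjusted p under 0.05 and 47 after Benjamini-Hochberg adjustment. Leaving out an array gave 46 to 49. With a minimum log2 difference of 1, 19 members were past the threshold, all lower, beside 14.4% of all genes lower. Filters removed members. Of the 38 left after removal of probe sets dimmer than the median, 33 were lower, beside 48.8% of all genes left. Of the 44 left with probe sets at background left out, 38 were lower, beside 45.4% of all genes left. The 79 lower genes of the other mitotic lists numbered 46 and 52 under these filters, which test fewer genes. How many genes of these lists the filters left is not given here, so these counts are not shares. With the minimum difference 30 of the 108 were lower, beside 14.4% of all genes. Nuf2 and Ncapd2 each passed in 6 of 16 alternatives, with adjusted p of 0.0243 to 0.161 and 0.0194 to 0.244 from limma and Student's t-test. Cdca8, Cenpe, Birc5, Ndc80, Cit and Plk1 changed side in 1 to 4 alternatives each. Deviations of same-numbered arrays from their group means correlated at r = -0.23, -0.21 and -0.03, and those of other-numbered arrays at -0.03 to 0.21. With 3 arrays per group the deviations are tied to each other, so these values cannot decide whether the numbers pair arrays. With the replicate block 48 members were lower, without Nuf2 and Ncapd2 and with Birc5. Median centring left the median of all genes at -0.02 and that of the members at -0.69. The 7 members above background on no array are limited by signal.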
